A study of Mus musculus with 43 samples.

Results

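A set of 10 genes that cells switch on quickly was followed in mouse brain. Those that restrain MAP kinase signalling are the MAP kinase phosphatases Dusp1, Dusp4, Dusp5 and Dusp6 and the signalling inhibitor Spry4. The others are the immediate early genes Ier2 and Ier5, the antiproliferative gene Btg2, the small GTPase gene Arl4d and the transcription factor gene Klf4. All 10 were taken by symbol and were found among the 55804 gene rows of each of 2 expression tables. The 10 were chosen by measured values of these same tables, the differences between their groups, which were already known, above all those of the AppNLGF cohort. Their differences between the groups of that cohort are therefore a description. Where such a gene is said to be called, that is, past the threshold of the fit over all genes, this too describes the choice and is no independent test.

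The data were bulk RNA-seq of brain from 43 libraries, deposited as length-normalised transcript abundances (TPM). In the 6-month cohort, 4 wild-type libraries were compared with 11 libraries of vehicle-treated AppNLGF mice (AppNL-G-F/NL-G-F) and 13 of AppNLGF mice given the NRF2 inducer CDDO-2P-Im (2P-Im), a synthetic oleanane triterpenoid. AppNLGF mice carry disease mutations knocked into their own App gene, so no transgene promoter is involved. In the 11-month cohort, 5 wild-type libraries, 5 of vehicle-treated APP/TAU mice and 5 of 2P-Im-treated APP/TAU mice were compared. APP/TAU mice (APPV717I::TAUP301L) carry mutant forms of APP and TAU, and the labels name no promoter for them. 2P-Im was given by mouth at 30 µmol per kg body weight 3 times per week, for 4 weeks in AppNLGF and 2 weeks in APP/TAU mice. The vehicle was 10% DMSO and 10% Chremophol EL in PBS, and the wild-type mice of both cohorts are labelled as vehicle-treated. Whether the libraries stem from different animals is not stated in the labels. The p-values below therefore reflect library-to-library spread, which may be technical.

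A growth factor, a neurotransmitter or calcium entry activates the MAP kinases ERK, JNK and p38 by phosphorylation. The kinases then switch on immediate early genes within minutes, among them Fos, Ier2 and Btg2. The same signal switches on its own brakes: Dusp phosphatases remove the activating phosphates from MAP kinases, and Sprouty proteins act upstream on the path from receptor to ERK. In brain these transcripts follow neuronal activity, and they also change in glia and blood vessels. In bulk tissue, fewer cells of a type and less RNA per cell cannot be told apart.

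The promoter sequences of 7 of the 10 genes were at hand (RefSeq, GRCm38.p6): those of Dusp1, Dusp5, Dusp6, Ier5, Btg2, Arl4d and Klf4, read as the 250 bases before the annotated start. Dusp4, Ier2 and Spry4 were not in the table. Of these, 5 are printed, 5′ to 3′ on the strand of the gene, because they hold the matches described next, with Dusp6 as a window that holds none of them. Capitals mark a full cyclic AMP response element (CRE, TGACGTCA), its half-site (TGACG, or CGTCA on the other strand) or a CArG box, the motif bound by serum response factor; overlapping matches share their letters. The windows are chr17:26508473-26508722 (minus strand) for Dusp1, chr1:134079156-134079405 (minus) for Btg2, chr11:101665291-101665540 (plus) for Arl4d, chr19:53528895-53529144 (plus) for Dusp5 and chr10:99262981-99263230 (plus) for Dusp6.
Dusp1: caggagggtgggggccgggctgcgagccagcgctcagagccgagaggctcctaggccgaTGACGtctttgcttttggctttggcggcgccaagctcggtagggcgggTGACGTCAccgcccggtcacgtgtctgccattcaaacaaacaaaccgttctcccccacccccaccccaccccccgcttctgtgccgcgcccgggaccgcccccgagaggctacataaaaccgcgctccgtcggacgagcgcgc
Btg2: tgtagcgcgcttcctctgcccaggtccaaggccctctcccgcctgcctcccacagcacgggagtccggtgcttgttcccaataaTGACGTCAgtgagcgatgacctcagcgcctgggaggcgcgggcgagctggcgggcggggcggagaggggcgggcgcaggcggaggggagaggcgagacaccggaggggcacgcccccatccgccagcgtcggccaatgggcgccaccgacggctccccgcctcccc
Arl4d: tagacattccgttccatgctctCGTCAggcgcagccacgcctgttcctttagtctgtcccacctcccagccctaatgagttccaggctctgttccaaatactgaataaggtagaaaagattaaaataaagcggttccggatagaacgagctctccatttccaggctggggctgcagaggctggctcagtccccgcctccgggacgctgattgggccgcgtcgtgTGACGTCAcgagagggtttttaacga
Dusp5: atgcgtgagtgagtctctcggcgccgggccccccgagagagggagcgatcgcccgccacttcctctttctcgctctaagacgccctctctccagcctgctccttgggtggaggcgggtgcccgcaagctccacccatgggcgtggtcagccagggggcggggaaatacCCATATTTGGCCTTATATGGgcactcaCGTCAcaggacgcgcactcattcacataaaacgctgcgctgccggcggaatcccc
Dusp6: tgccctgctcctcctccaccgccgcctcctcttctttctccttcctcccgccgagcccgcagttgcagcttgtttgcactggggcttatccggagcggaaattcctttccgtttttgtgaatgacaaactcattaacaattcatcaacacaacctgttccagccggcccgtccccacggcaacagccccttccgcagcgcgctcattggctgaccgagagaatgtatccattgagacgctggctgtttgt

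The windows of Dusp1, Btg2 and Arl4d each held a full CRE, whose first base lies 143, 166 and 26 bases before the start. A full CRE was present in 1.55% of 32851 RefSeq promoters of the same length, searched on both strands. The 7 windows held 54.4% to 74.0% G and C, against a median of 52.4% over all promoters. The half-site was present in 5 of the 7 windows (Dusp1, Dusp5, Btg2, Arl4d and Klf4) and in 17.8% of all promoters. Dusp5 held 2 adjacent CArG boxes, CCATATTTGG and CCTTATATGG, a motif present in 1.47% of promoters, and no other of the 7 windows held one. Dusp6 and Ier5 held neither a CRE, a half-site nor a CArG box. The AP-1 letters TGANTCA were in none of the 7 windows and in 6.75% of promoters. TGACNNNGC, the core letters of the antioxidant response element that NRF2 binds, were present in Dusp1 and Dusp5 and in 10.2% of promoters; they can overlap the letters of a CRE. These are matches of letters and not measured binding sites. Of 10393 genes tested in the AppNLGF cohort that had a promoter sequence at hand, 321 had a full CRE in the window. This is a larger share than the 1.55% of all promoters, but the 2 shares are not counted alike. The 321 are counted per gene among the genes tested, and the 1.55% per promoter, whether its gene was tested or not. The median log2 difference of the 321 between vehicle and wild type was -0.04, against -0.03 over all genes tested. These are values as deposited. The genes among the 321 that were called lower were Dusp1 and Arl4d as deposited, and Dusp1 and Btg2 after scaling. Among all 10393 genes, 8 were called lower as deposited and 16 after scaling. Since the 10 genes were chosen with this comparison known, no link between a CRE and lower levels is read from these calls.

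Several facts about the libraries bear on the values. The most abundant RNA took 15.5% to 40.0% of all TPM in a library, and TPM of the other genes shift with its share. It took 15.5% to 29.1% in APP/TAU vehicle libraries and 27.9% to 31.2% in APP/TAU 2P-Im libraries. Median-ratio scaling, which divides each library by the median ratio of its genes to their mean over libraries, is therefore given beside the deposited values. TPM keep no read depth, so the depth behind each value is unknown. Neuronal markers summed to 2680 to 3093 scaled TPM in every AppNLGF library and 2424 to 2649 in every APP/TAU-cohort library, as brain tissue should show. Cerebellar markers summed to 139 to 174 scaled TPM in the AppNLGF cohort and 650 to 891 in the APP/TAU cohort, whereas striatal markers summed to 405 to 815 and 113 to 169. The cohorts therefore differ in these region markers as well as in model and age, and they were normalised separately. Levels are compared only within a cohort.

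All 10 genes had a mean of at least 1 TPM in both cohorts and so passed the filter on low values. Per transcript length, the most abundant of them in AppNLGF libraries were Dusp6 (mean 21.1 TPM), Ier5 (18.5) and Arl4d (16.3), and the least was Klf4 (1.73), at the 12.1 percentile of the genes tested. In wild-type mice of that cohort, Dusp6 (23.9 ± 3.61 TPM, SD, n = 4), Arl4d (21.6 ± 3.71), Ier5 (20.6 ± 3.87) and Dusp1 (19.5 ± 6.40) lay within each other's spread. In vehicle-treated AppNLGF mice the order was different, with Dusp6 at 18.3 ± 3.10, Ier5 at 17.1 ± 2.47, Arl4d at 12.4 ± 3.12 and Dusp1 at 7.32 ± 1.81 TPM (n = 11). In the APP/TAU cohort Dusp1 was the most abundant on average (26.9 TPM), and Dusp4 (5.55) and Klf4 (3.96) the least.

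**Figure D1:**
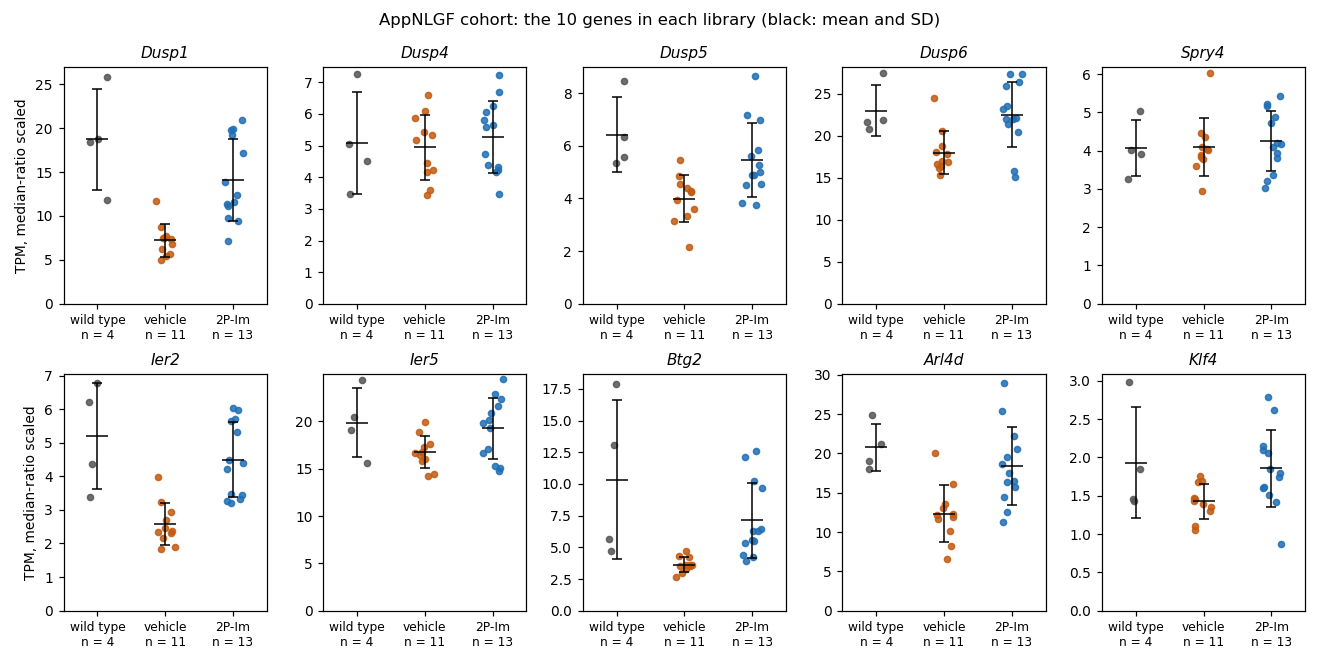
Scaled TPM of the 10 genes in each AppNLGF-cohort library (points, 1 panel per gene, y axis from 0) in wild-type, vehicle and 2P-Im groups; black bars are mean and SD. Dusp1, Ier2, Btg2 and Arl4d are low in the vehicle group (Dusp1 4.96 to 11.7 TPM), whereas Dusp4 and Spry4 cover similar ranges in all 3 groups.

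The first question was how vehicle-treated AppNLGF mice differ from wild-type mice of the same age. Dusp1, Ier2, Btg2 and Arl4d had the largest differences, all towards lower levels in the model (log2 difference -0.78 to -1.27 as deposited). Dusp5 and Dusp6 stood lower by less, and the values of Dusp4 and Spry4 covered like ranges in both groups. Dusp1, Ier2 and Arl4d passed the threshold as deposited, and Dusp1, Ier2 and Btg2 after scaling (limma, Benjamini-Hochberg adjusted p below 0.05 over all genes tested). Over all 16776 genes tested, 0.0596% were called lower as deposited and 0.137% after scaling; since the genes were chosen with this comparison known, nothing is read from their calls or their share.

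Among the phosphatases, Dusp1 encodes the nuclear enzyme MKP-1, which acts on p38, JNK and ERK. Its values were 18.8, 27.7, 19.5 and 12.1 TPM in the 4 wild-type libraries, and the 11 vehicle libraries ran from 5.32 over a median of 6.96 to 12.2 TPM. All but vehicle library 6, the highest, were below every wild-type library. The log2 difference was -1.27 ± 0.24 (SE) as deposited and -1.24 ± 0.22 after scaling. Dusp5, a nuclear phosphatase specific for ERK, had 5.46 to 8.96 TPM in wild-type and 2.00 to 5.68 TPM in vehicle libraries, with 10 of the 11 below every wild-type library. Its difference was -0.60 ± 0.19. Dusp6, the cytoplasmic ERK phosphatase MKP-3, had 21.9, 23.2, 29.1 and 21.2 TPM in wild-type libraries and 14.9 to 25.5 TPM, median 18.2, in vehicle libraries. Again 10 of 11 vehicle libraries lay below all wild-type libraries, and library 6 was the highest, but the difference was smaller (-0.37 ± 0.17). Dusp4, the nuclear phosphatase MKP-2, spread from 3.45 to 7.71 TPM in wild-type and 3.14 to 7.25 TPM in vehicle libraries and differed by -0.04 ± 0.19. Spry4 differed by -0.02 ± 0.16, with 4.22 ± 0.83 TPM in wild-type (n = 4) and 4.17 ± 0.88 TPM in vehicle libraries (n = 11).

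Ier2, which encodes a nuclear protein of the immediate early response, had 6.19, 7.27, 4.63 and 3.46 TPM in wild-type libraries. The vehicle libraries ran from 2.03 over 2.52 to 4.16 TPM, and 10 of 11 were below every wild-type library. The log2 difference was -0.80 ± 0.17. Ier5, its relative that acts on the heat shock factor HSF1, differed by only -0.25 ± 0.13 (20.6 ± 3.87 against 17.1 ± 2.47 TPM). Btg2, which slows proliferation and recruits the mRNA deadenylase complex, varied most among wild-type libraries, at 13.1, 19.2, 5.99 and 4.80 TPM. Every vehicle library (2.83 to 4.70 TPM) was below them as deposited, and the difference was -1.15 ± 0.28. After scaling, 10 of 11 vehicle libraries were below every wild-type library for Btg2, and all 11 for Dusp1. Of 16776 genes tested, 44 had every vehicle library below every wild-type library as deposited and 34 after scaling. The share of genes with 10 of 11 below was not computed. Since the genes were chosen with this comparison known, nothing is read from these separations. Arl4d, which encodes an ARF-like GTPase, had 18.0, 22.7, 26.3 and 19.4 TPM in wild-type and 7.20 to 18.3 TPM, median 12.3, in vehicle libraries. Vehicle library 1 alone reached the wild-type range, and the difference was -0.78 ± 0.17. Klf4, a zinc finger factor also made by endothelial cells, had 2.01 ± 0.80 and 1.45 ± 0.24 TPM and differed by -0.27 ± 0.16.

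Single libraries of both groups change which genes are called. As deposited, Dusp1 was the one gene called without wild-type library 1 or 3, none of the 10 was called without library 2, and Dusp1, Ier2 and Btg2 were called without library 4. The difference of Dusp1 ranged from -1.47 to -1.09 over these fits. Arl4d was called in 6 of 15 fits that left out 1 library, being lost also without vehicle library 2, 3, 5, 8 or 10. After scaling Dusp1 was called in 15 of 15 such fits, Ier2 in 13 (not without wild-type library 1 or 2) and Btg2 in 10 (not without wild-type library 1 or 2 or vehicle library 2, 7 or 11), and Arl4d was called without vehicle library 1.

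The second question was whether 2P-Im treatment changed these genes in AppNLGF mice. The treated mean of Btg2 was 1.95 times its vehicle mean, that of Dusp1 1.93 times, that of Ier2 1.72 times and that of Arl4d 1.45 times. For Dusp4 and Spry4 the ratio was 1.04 and 1.02. None of the 10 was called higher on deposited TPM, where 0.0477% of all genes were; Dusp1 and Ier2 were called after scaling, where 0.244% were. The wild-type and 2P-Im groups are both set against the same 11 vehicle libraries, so a low vehicle group moves both comparisons.

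In the 13 treated libraries Dusp1 ran from 5.96 over 12.9 to 23.7 TPM, and 12 of 13 were above the vehicle median, 7 of them above every vehicle library. The log2 difference was 0.81 ± 0.17 as deposited and 0.84 ± 0.16 after scaling. Ier2 ran from 2.78 over 3.92 to 6.86 TPM, all 13 above the vehicle median, with differences of 0.58 ± 0.12 and 0.61 ± 0.11. Btg2 ran from 3.50 over 5.80 to 13.8 TPM, 9 of 13 above every vehicle library, and differed by 0.71 ± 0.19 as deposited. Arl4d ran from 11.0 over 17.6 to 24.2 TPM and differed by 0.51 ± 0.12. The groups overlapped for all 4 genes.

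The remaining genes differed less. Dusp5 was higher by 0.33 ± 0.14, Dusp6 by 0.26 ± 0.12, Klf4 by 0.20 ± 0.11 and Ier5 by 0.14 ± 0.09 as deposited. Dusp6 was low in 3 treated libraries, 1, 2 and 5, in which the most abundant RNA exceeded 39% and Dusp6 was at 18.0, 12.6 and 13.2 TPM. These were its lowest treated values as deposited, so leaving these libraries out must raise its difference, which was then 0.43 ± 0.09; nothing is read from that value, an alternative chosen after seeing the data. Against wild-type mice, none of the 10 was called in treated AppNLGF mice, with 0.262% of all genes called as deposited and 0.715% after scaling. Dusp1 was still lower than in wild-type mice by 0.47 ± 0.23 and Btg2 by 0.45 ± 0.27, with 10 of 13 treated libraries below the wild-type median for both.

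**Figure D2:**
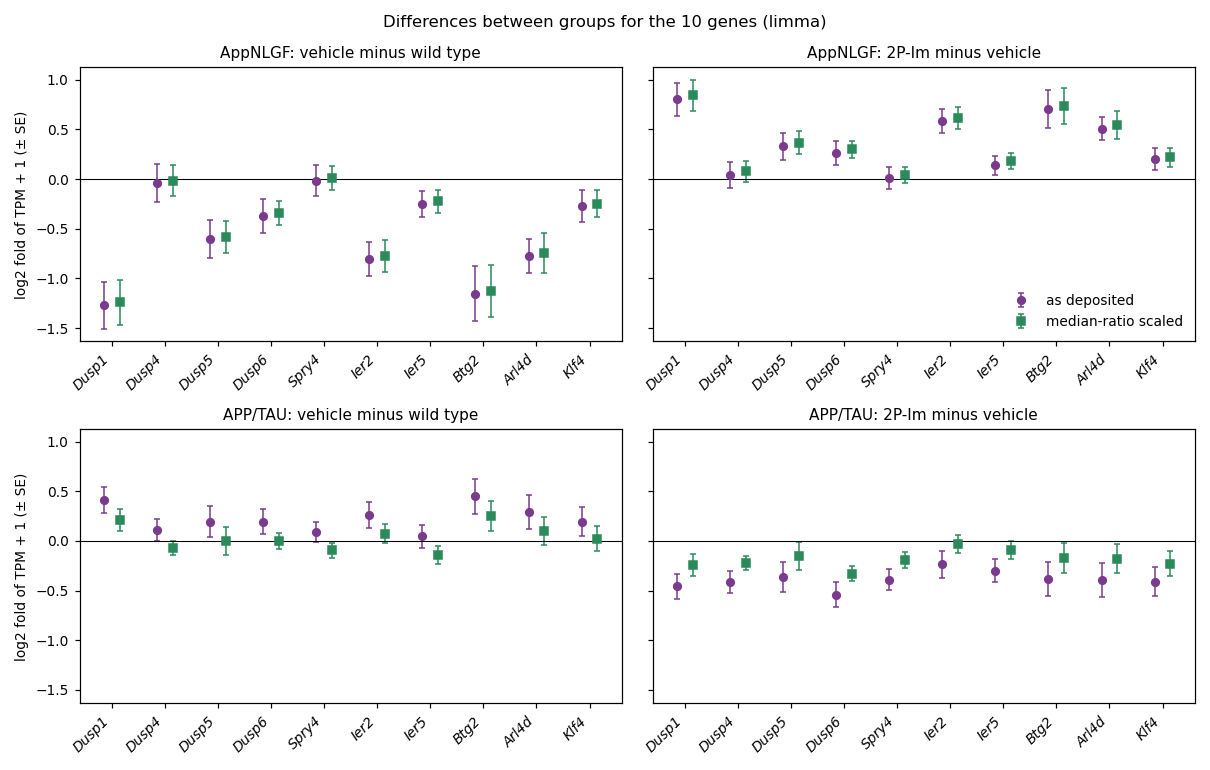
Log2 difference of TPM + 1 (y axis, ± SE, from limma) for each gene, in the AppNLGF cohort (top) and the APP/TAU cohort (bottom), for vehicle minus wild type (left) and 2P-Im minus vehicle (right), as deposited (circles) and scaled (squares). In AppNLGF the 2 scales nearly coincide (Dusp1 -1.27 and -1.24 on the left), whereas in APP/TAU they stand apart (Dusp1 0.41 and 0.21 on the left).

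The libraries could further be divided by Xist, the RNA made from the inactive X chromosome in female cells; the labels give no sex. It was above 10 TPM in none of 4 wild-type, 5 of 11 vehicle and 7 of 13 2P-Im libraries of this cohort. In libraries with Xist below 10 TPM, scaled Dusp1 was 6.82 ± 1.28 TPM with vehicle (n = 6) and 17.2 ± 3.42 TPM with 2P-Im (n = 6). In the others it was 7.75 ± 2.45 TPM with vehicle (n = 5) and 11.5 ± 3.97 TPM with 2P-Im (n = 7). Btg2 reached 9.57 ± 2.69 TPM with 2P-Im in the low-Xist libraries (6.31 to 12.6 TPM), against 5.04 ± 0.87 TPM in the others (3.94 to 6.32 TPM). Ier2 went from 2.18 ± 0.26 to 5.28 ± 0.77 TPM in the low-Xist libraries and from 3.04 ± 0.62 to 3.83 ± 0.90 TPM in the others. Dusp6 was alike in both, at 22.4 ± 4.27 and 22.6 ± 3.89 TPM with 2P-Im.

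Put as log2 differences after scaling, the 2P-Im effect in low-Xist libraries exceeded that in the others by 0.72 ± 0.28 for Dusp1, 0.73 ± 0.18 for Ier2, 0.71 ± 0.30 for Btg2 and 0.12 ± 0.18 for Dusp6. None of these passed adjustment over all genes (limma adjusted p = 1 for each). That test called 0 genes, 0% of those tested, while 721 had an unadjusted p under 0.05; on deposited values it also called 0%. This comparison was added after seeing the data. The low-Xist 2P-Im libraries were numbers 1, 2 and 8 to 11, and the others were 3 to 7, 12 and 13. Xist thus partly goes with library number. The most abundant RNA took 32.5% to 40.0% in 2P-Im libraries 1 to 7 and 28.3% to 31.1% in 8 to 13. The parts of Xist and library number in these differences were not tested. Since all 4 wild-type libraries were low in Xist, the comparison of vehicle with wild type was repeated within low-Xist libraries. There Dusp1 differed by -1.31 ± 0.20 and Ier2 by -0.93 ± 0.16 as deposited, and both were called. The 2P-Im effect in this fit of low-Xist libraries alone was 1.18 ± 0.18 for Dusp1 and 0.95 ± 0.15 for Ier2 as deposited, and both were called. A single fit of all libraries split by Xist gave 1.18 ± 0.21 and 0.95 ± 0.14 in low-Xist libraries as deposited, and both were called. In the other libraries that fit gave 0.47 ± 0.21 and 0.23 ± 0.14, and neither was called. The share of all genes called in these fits is not given. Dusp1 and Ier2 were chosen with the group differences known, and the split by Xist was made after seeing the data. Nothing is therefore read from whether they were called in the fits by Xist.

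**Figure D3:**
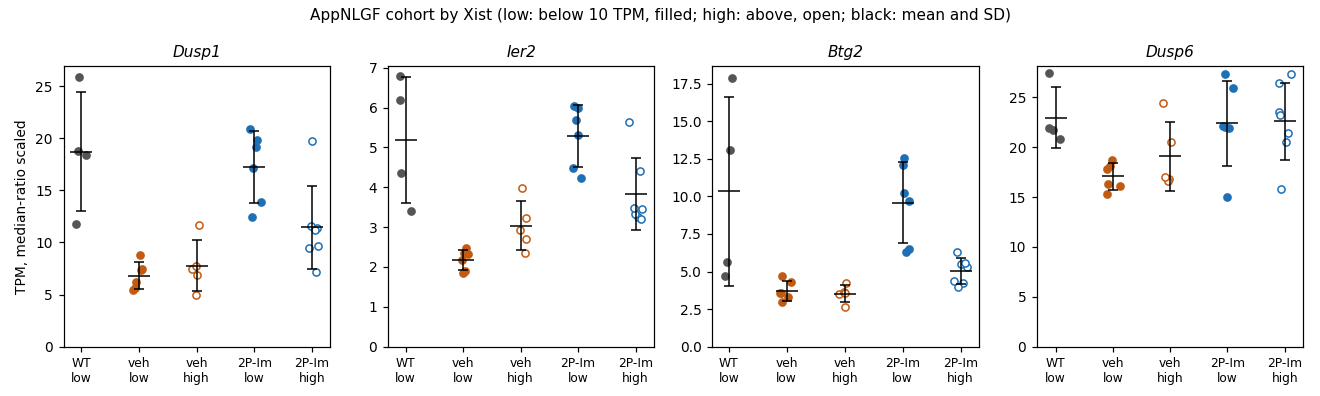
Scaled TPM (y axis from 0) of Dusp1, Ier2, Btg2 and Dusp6 in AppNLGF-cohort libraries by group and by Xist below 10 TPM (low, filled) or above (high, open); black bars are mean and SD. With 2P-Im, Btg2 spans 6.31 to 12.6 TPM in low-Xist and 3.94 to 6.32 TPM in high-Xist libraries, while Dusp6 is at 15.1 to 27.3 and 15.8 to 27.4 TPM.

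The genes also differed in which other genes they followed from library to library. Fos, the classical immediate early gene, was 22.0 ± 7.22 TPM in wild-type, 6.01 ± 1.70 TPM in vehicle and 14.8 ± 6.82 TPM in 2P-Im libraries of the AppNLGF cohort. Among the 13 treated libraries Dusp1 rose with Fos (scaled log2 values, Pearson r = 0.913, Spearman rho = 0.934, permutation adjusted p = 0.00100 for both, over 20 relations). Btg2 (r = 0.803, adjusted p = 0.0086; rho = 0.863, adjusted p = 0.00273) and Ier2 (r = 0.793, adjusted p = 0.00973; rho = 0.863, adjusted p = 0.00273) did so as well. Without libraries 5 and 10, the farthest from the median of Fos, r was 0.852 for Dusp1, 0.851 for Btg2 and 0.737 for Ier2, and the adjusted p was 0.0163, 0.0160 and 0.0905. For Dusp5 r was 0.690 (permutation adjusted p = 0.0429) and rho 0.681 (permutation adjusted p = 0.0668), and r was 0.404 without those 2 libraries. As deposited its r was 0.803 (permutation adjusted p = 0.00455), and 0.578 without them (permutation adjusted p = 0.308). Leaving out the 2 libraries also narrows the range of Fos, so whether the relation rests on them was not tested. For Dusp6 r was 0.607 after scaling (permutation adjusted p = 0.108) and 0.750 as deposited (permutation adjusted p = 0.0113), where it was 0.537 without those 2 libraries (permutation adjusted p = 0.338). Dusp4, Ier5, Arl4d, Klf4 and Spry4 had r between -0.04 and 0.19 after scaling. As deposited their r was higher, at 0.464, 0.362, 0.205, 0.445 and 0.516 in that order, and none passed adjustment (permutation).

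Because Fos was itself higher in the low-Xist treated libraries, the relation was recomputed within each subset. For Dusp1 r was 0.678 in 6 low-Xist and 0.942 in 7 high-Xist libraries. It was 0.767 and 0.532 for Ier2 and 0.761 and 0.472 for Btg2. Dusp6 had 0.830 and 0.866, Dusp4 0.540 and 0.560, and Dusp5 0.227 and 0.785. Klf4 had 0.241 and 0.888, and Spry4 0.387 and 0.876. Ier5 had 0.164 and 0.227, and Arl4d -0.354 and -0.279. With 6 or 7 libraries each, these r are descriptions without a test. Among the 11 vehicle libraries, where scaled Fos spanned only 3.03 to 8.23 TPM, no relation passed adjustment (permutation), and r was 0.09 for Dusp1, -0.10 for Ier2 and 0.56 for Btg2. Whether the relation differs between the groups was not tested. Arl4d was lower in vehicle and higher in treated libraries as Dusp1 was, yet its r with Fos in treated libraries was 0.01 after scaling and 0.21 as deposited.

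**Figure D4:**
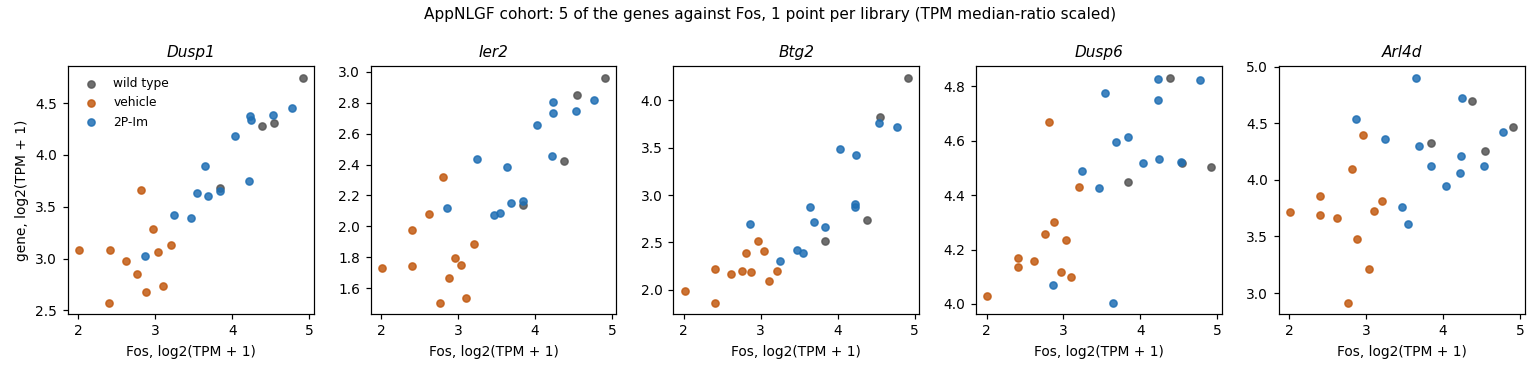
Each gene against Fos, 1 point per AppNLGF-cohort library (both axes log2 of scaled TPM + 1, axes not from 0; colours are groups). Dusp1, Ier2 and Btg2 rise with Fos among the 13 treated libraries (r 0.913, 0.793 and 0.803), Arl4d does not (r 0.01).

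Each library's deviation from its group mean was taken over all 28 AppNLGF-cohort libraries. From the pairwise r, 2 sets of the 10 genes are described, without a test of where a set ends. Dusp1, Ier2 and Btg2 deviated together (r = 0.75 to 0.85), and so did Dusp6, Dusp4 and Spry4 (r = 0.68 to 0.79). Between the sets r ran from -0.32 (Dusp4 with Btg2) to 0.44 (Dusp1 with Dusp6). Klf4 followed Spry4 (r = 0.67) about as closely as Dusp4 did (r = 0.68). Ier5 followed Dusp4 (r = 0.60) and went against Btg2 (r = -0.46). Arl4d followed none of the others, its highest r being 0.35 with Ier2. The 5 genes most like Dusp1 across these deviations were Nr4a1 (r = 0.86), Ier2 (0.85), Junb (0.81), Ccn1 (0.77) and Btg2 (0.76). Those most like Dusp6 were Syt4 (0.80), Spry4 (0.79), Hecw1, Sema3e and Pcdh9 (each 0.78). These correlations are descriptions over libraries that share a scaling.

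Markers of brain regions and vessels moved with some of these genes. The mean level of 9 cortical markers had r = 0.66 with Ier5, 0.49 with Dusp6 and 0.43 with Dusp4 over the same 28 deviations, but -0.17 with Dusp1 and -0.20 with Ier2. Striatal markers had r = -0.57 with Dusp4 and -0.52 with Spry4, and 0.00 with Dusp1. Endothelial markers had r = 0.54 with Klf4 and 0.10 with Dusp1. Between groups, the 9 cortical markers summed to 174 to 220 scaled TPM in wild-type, 175 to 223 in vehicle and 167 to 231 in 2P-Im libraries. All 10 endothelial markers were higher with 2P-Im than with vehicle, none of them called, with a median log2 difference of 0.13 after scaling; their sums were 57.3 to 59.8 in wild-type, 65.4 to 80.7 in vehicle and 71.3 to 91.2 in 2P-Im libraries. Microglial markers summed to 176 to 188 in wild-type, 237 to 314 in vehicle and 186 to 305 in 2P-Im libraries, and C1qa and C1qb of these 10 were called higher in vehicle than in wild-type mice on both scales. The 8 astrocyte markers, of which Gfap was called higher, summed to 316 to 355, 402 to 506 and 343 to 478. No marker of these lists was at 0 in a whole group. The part of tissue composition in the differences was not tested.

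Other genes of the pathway were read from lists by role. Of the other MAP kinase phosphatases, 4 of 6 were tested (Dusp7, Dusp8, Dusp10 and Dusp16), and none was called in AppNLGF vehicle against wild-type libraries; their median log2 difference was -0.11 as deposited. None of 11 other dual-specificity phosphatases, 5 other Sprouty and Spred inhibitors, 30 genes of the ERK cascade itself, 15 of the JNK and p38 cascades and 6 transcription targets of ERK signalling was called in either AppNLGF comparison on either scale. After scaling, the ERK cascade had medians of -0.02 in vehicle against wild-type and -0.02 in 2P-Im against vehicle libraries. Among the atypical phosphatases, Dusp14 came nearest in vehicle libraries (-0.36 ± 0.11, limma adjusted p = 0.180 after scaling).

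Of 14 immediate early transcription factors, 5 were called lower in vehicle-treated AppNLGF mice as deposited and 6 after scaling, Junb, Nr4a1, Fos and Npas4 having the smallest p on both scales; over all genes 0.0596% and 0.137% were called lower. With 2P-Im, Fos, Nr4a1 and Junb were called higher as deposited, and Egr2 as well after scaling, where 0.0477% and 0.244% of all genes were called higher. Differences between the lists were not tested. Scaled, Fos was lower by -1.68 ± 0.26 in the model and higher by 1.13 ± 0.18 with treatment. Among 22 activity-regulated effector genes, Arc and Per1 were called lower in the model on both scales, and Arc was called higher with treatment on both. Of 19 relatives of Ier2, Btg2, Arl4d and Klf4, Klf2 was called, higher with 2P-Im after scaling (0.46 ± 0.10, limma adjusted p = 0.0270). None of 12 glucocorticoid targets was called. Of 14 NRF2 target genes, which report exposure to the drug, Nqo1, Ftl1, Gstm1 and Aox1 were called higher with 2P-Im after scaling. These lists were drawn up with earlier results of these data known.

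In APP/TAU mice none of the 10 genes passed the threshold in any of the 3 comparisons on either scale. On deposited TPM all 10 were higher with vehicle than in wild-type mice and all 10 lower with 2P-Im than with vehicle, but so were most genes. The median over all 17592 genes tested was 0.18 in the first comparison and -0.19 in the second, with 90.1% of genes lower in the second. After scaling, 5 of the 10 were higher and 5 lower in vehicle against wild-type libraries. Over all genes, 0.0227% were called in vehicle against wild type as deposited and 0.0284% after scaling, and with 2P-Im against vehicle 0% and 0.0114%. At an unadjusted p under 0.05, 4719 genes differed between 2P-Im and vehicle as deposited and 1556 after scaling.

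**Figure D5:**
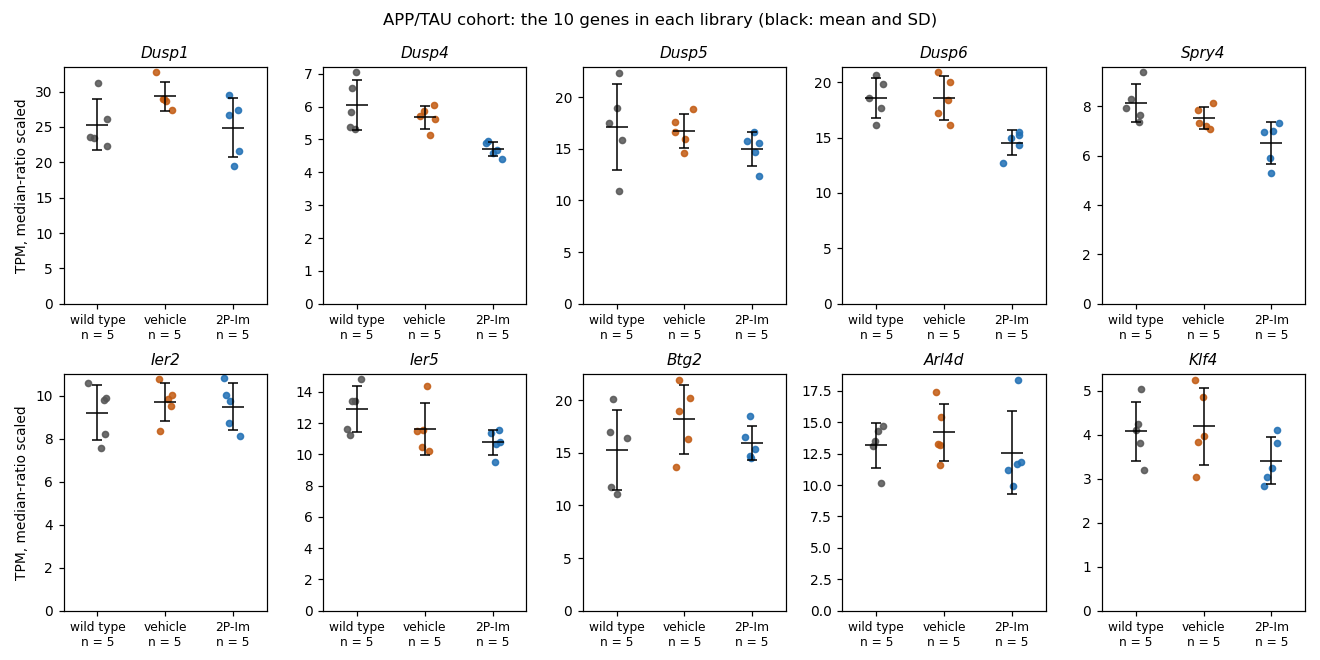
Scaled TPM of the 10 genes in each APP/TAU-cohort library (points, y axis from 0, 5 libraries per group); black bars are mean and SD. The 5 2P-Im libraries are below all vehicle libraries for Dusp6 (12.7 to 15.5 against 16.1 to 20.9 TPM) and Dusp4, and the 3 groups overlap for Ier2 (7.57 to 10.8 TPM).

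Dusp1 had the smallest p of the 10 in APP/TAU vehicle against wild-type libraries as deposited. Scaled, it was 31.2, 22.3, 23.5, 26.1 and 23.5 TPM in wild-type and 29.0, 27.4, 28.9, 28.6 and 32.7 TPM in vehicle libraries. The difference was 0.41 ± 0.13 as deposited (limma adjusted p = 0.126) and 0.21 ± 0.11 after scaling (adjusted p = 0.389). Btg2 differed by 0.45 ± 0.18 (adjusted p = 0.165) and 0.25 ± 0.15 (adjusted p = 0.463). None of the 10 genes had every vehicle library above every wild-type library, a separation that 2.01% of all genes showed as deposited. The corresponding AppNLGF differences were -1.27 for Dusp1 and -1.15 for Btg2. The difference between the models was not tested, as model, age, region markers and table cannot be told apart.

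With 2P-Im, the ERK phosphatase Dusp6 showed the largest difference of the 10 on both scales. Its scaled values were 18.4, 20.1, 20.9, 16.1 and 17.2 TPM with vehicle and 12.7, 14.3, 15.5, 15.2 and 14.9 TPM with 2P-Im. The wild-type libraries, at 20.6, 16.1, 17.6, 18.6 and 19.8 TPM, overlapped the vehicle libraries. Every treated library was below every library of both other groups. The log2 difference from vehicle was -0.54 ± 0.13 as deposited and -0.33 ± 0.08 after scaling (limma adjusted p = 0.167 and 0.343), and that from wild type was -0.33 ± 0.08 after scaling (adjusted p = 0.306).

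Dusp4 went with it, at 5.14, 5.71, 5.88, 5.61 and 6.05 scaled TPM with vehicle and 4.68, 4.60, 4.94, 4.90 and 4.42 with 2P-Im, again without overlap. Its difference from vehicle was -0.23 ± 0.07 and from wild type -0.30 ± 0.07 (limma adjusted p = 0.475 and 0.304). Spry4 was 8.28, 7.92, 7.37, 7.65 and 9.37 TPM in wild-type libraries and 6.97, 5.30, 7.32, 5.89 and 7.01 with 2P-Im, a difference of -0.29 ± 0.08 (limma adjusted p = 0.406). Dusp6, Dusp4 and Spry4 thus had every treated library below every wild-type library after scaling, as did 0.898% of all genes. As deposited none of the 10 did so, with 1 of 5 treated libraries below every wild-type library for Dusp6 and 3 of 5 for Dusp4 and for Spry4. Against vehicle, Dusp6 and Dusp4 were apart after scaling (0.898% of genes) and Dusp1, Dusp4, Dusp6 and Spry4 as deposited (3.62% of genes). The 10 genes were chosen with results of these tables known, so nothing is read from their share beside that of all genes. Dusp6, Dusp4 and Spry4 also varied together within the AppNLGF groups. There Klf4 also went with Spry4 (r = 0.67) and Ier5 with Dusp4 (r = 0.60), and neither Klf4 nor Ier5 was apart in APP/TAU. Of the other Sprouty and Spred genes, all 5 were lower with 2P-Im than with vehicle after scaling, none of them called, with a median of -0.07 and Spred2 lowest in p (-0.18 ± 0.05, limma adjusted p = 0.460).

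Ier2, Btg2 and Arl4d differed less between these groups. After scaling, Ier2 differed by -0.03 ± 0.09 between 2P-Im and vehicle libraries (9.49 ± 1.07 and 9.70 ± 0.88 TPM, n = 5 each), Btg2 by -0.17 ± 0.15, Arl4d by -0.18 ± 0.14 and Dusp1 by -0.24 ± 0.11 (limma adjusted p = 0.953, 0.775, 0.744 and 0.555). Dusp5, Ier5 and Klf4 differed by -0.15 ± 0.14, -0.09 ± 0.09 and -0.23 ± 0.13. Scaled Fos was 31.3 ± 2.19 TPM with vehicle and 27.2 ± 5.99 TPM with 2P-Im, and 12 of 14 immediate early transcription factors were lower with 2P-Im, none of them called, with a median of -0.29. Against wild type, none of the 10 genes was called in treated APP/TAU mice, with 0.0227% of all genes called as deposited and 0.0284% after scaling. Cortical markers summed to 129 to 157 scaled TPM with vehicle and 130 to 138 with 2P-Im. APP/TAU vehicle libraries 2 and 4, with the lowest share of the most abundant RNA, were then left out together, and Dusp6 differed after scaling by -0.35 ± 0.09 (an alternative chosen after seeing the data).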

How the data were processed

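Brain RNA of 43 mouse libraries was sequenced from directional libraries of total RNA, per the labels. The authors deposited TPM per gene and per transcript for the AppNLGF cohort and per gene for the APP/TAU cohort; per the submitters' processing notes these were made with Salmon on GRCm38 (mm10). Not given in the sources used here are the Salmon version, the annotation release and the use of strand in counting. Since TPM keep no depth, no counting error could be given. Ensembl identifiers were paired with symbols for 51327 of 55804 gene rows in each table.

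Tests were limma fits (version 3.58.1 in R 4.3.3) on log2(TPM + 1), with a trend, of the 3 groups of a table together, over genes with a mean of at least 1 TPM. Fold changes are on that scale, which understates those of low genes. Benjamini-Hochberg adjustment ran over all genes tested, and genes with an adjusted p below 0.05 are called. Each fit was repeated after median-ratio scaling. The fits were tested on simulated data. Correlations with Fos used 100000 permutations (numpy 2.4.6). The 10 genes and the 24 lists were chosen with earlier results of these data known. By the naming rule the text names all 10 genes, up to 4 called genes per list and comparison (with none called, up to 2 by smallest p), and the 5 genes most like Dusp1 and Dusp6. Settings varied were scaling, pseudocount, minimum TPM, groups in the fit, replicate number and libraries left out. The Xist comparison, the omission of libraries by the share of the most abundant RNA, and the combinations of scaling with a block or a subset were chosen after seeing the data.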

Additional observations from a re-analysis of the deposited data

Results flagged for a closer look

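Arl4d in APP/TAU 2P-Im library 5 was at 16.7 TPM, far from the other 4 libraries of the group (10.0 to 11.9 TPM). Its gap to the nearest library was 0.720 of the group's range, against a 95% critical value of 0.710 for 5 libraries. Chance alone flags about 1 in 20 groups, and 40 groups were checked, so this flag is no more than chance gives.

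The log2 difference of Ier2 between 2P-Im and vehicle libraries was 0.58 in AppNLGF and -0.24 in APP/TAU mice as deposited, with opposite signs and neither value called. The difference between the cohorts was not tested, because the tables were normalised separately. After scaling the APP/TAU value was -0.03.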

How the results depend on the processing

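In AppNLGF vehicle against wild-type libraries, 3 of the 10 genes were called. The number was 1 with no minimum TPM (Dusp1), 0 with a replicate block, with or without scaling, and 0 to 3 when single libraries were left out. With the replicate block Dusp1 differed by -1.25 ± 0.27. Same-numbered libraries did not deviate together (r = -0.08 to 0.12). Pairing equal numbers cannot show whether runs of numbers differ. The most abundant RNA took 33.1% to 38.0% in AppNLGF vehicle libraries 1 to 6 and 29.1% to 31.8% in 7 to 11. In 2P-Im libraries of that cohort it took 32.5% to 40.0% in 1 to 7 and 28.3% to 31.1% in 8 to 13. What the numbers stand for is not known. In AppNLGF 2P-Im against vehicle libraries, none was called as deposited. The number was 2 after scaling (Dusp1, Ier2), 1 with a pseudocount of 0.1 (Ier2), 1 with a minimum of 5 TPM (Dusp1), 1 with only the 2 groups fitted (Ier2) and 0 to 2 when single libraries were left out. It was 2 in libraries with Xist below 10 TPM and 3 without 2P-Im libraries 1, 2 and 5, on both scales. The cause of these changes was not tested. In APP/TAU none of the 10 was called in any setting run.

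Directions turned in APP/TAU vehicle against wild type after scaling, with the same values under a replicate block: Dusp4 -0.0706, Dusp5 -0.0019, Dusp6 -0.0028, Ier5 -0.14 and Spry4 -0.10. Ier5 ranged from -0.0502 (without wild-type library 2) to 0.132 over fits leaving out 1 library. Without vehicle libraries 2 and 4, Ier5 was -0.0084 and Spry4 -0.0036, and after scaling Dusp4 was -0.0688, Ier5 -0.10 and Spry4 -0.0903. In APP/TAU 2P-Im against wild type, leaving out single libraries gave -0.14 to 0.0353 for Dusp1, -0.0859 to 0.11 for Ier2 and -0.0867 to 0.17 for Btg2. The cause was not tested.

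Of the 20 relations with Fos, 4 passed, and 2 did without the 2 libraries farthest from the median of Fos. As deposited 5 passed, with Dusp6 gained, and 3 did without those libraries (Dusp1, Btg2, Ier2). Without them after scaling, r turned to -0.0626 for Dusp1, 0.0245 for Arl4d and -0.27 for Klf4 in vehicle and -0.15 for Dusp4 in 2P-Im libraries. As deposited, r for Ier5 was 0.089 in vehicle and 0.36 in 2P-Im libraries.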
